A study of Mus musculus with 62 samples.

Results

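The cytosolic ribosomal protein genes encode the proteins of the ribosome outside mitochondria. They were taken by symbol: Rpl or Rps followed by a number, together with Rplp0, Rplp1, Rplp2 and Rpsa, where the average of all 62 libraries reached 5 TPM. TPM is the abundance of a transcript corrected for its length, on a scale on which each library sums to the same total. The symbol pattern left out, among others, the kinase genes named Rps6k, pseudogene rows with the suffix -ps, and Rpl36al (mean 119 TPM), whose ending it did not take. Of 47643 rows in the table, 88 carried a symbol of this pattern and 80 passed the mean. Of these 80 members, 32 belong to the small (40S) subunit and 48 to the large (60S) subunit, including the 3 stalk proteins. The choice used the mean over all libraries and no difference between groups.

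A ribosome is built from ribosomal RNA and about one copy of each of these proteins, so the genes are usually expressed in proportion to one another. The small subunit reads the messenger RNA, and the large subunit joins the amino acids. Most of the messenger RNAs start with a C followed by a run of pyrimidines, the terminal oligopyrimidine or TOP motif, through which mTORC1 and the RNA-binding protein LARP1 control their translation. Growing and dividing cells make many ribosomes, whereas mature adipocytes, whose volume is mostly lipid, are non-dividing cells.

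The start of a ribosomal protein gene is shown for members that the results turn on, because the pyrimidine run at the start is the sequence feature the family is known for. RefSeq's promoter table for GRCm38.p6 held 71 transcription starts of 60 of the 80 members. On the sense strand, a run of at least 8 bases that were each C or T, beginning with C and lying between 25 bases before and 50 bases after the start, was present at 49 of the 71 member starts (69.0%) and at 7063 of all 32851 starts in the table (21.5%). The letters CCGGAAG, the core bound by transcription factors of the ETS family, occurred on either strand between 250 bases before and 50 bases after the start at 26 member starts (36.6%) and 2910 of all starts (8.86%). The TATA box letters TATAAA, on either strand in the 40 bases before the start, occurred at 1 member start (1.41%) and 994 of all starts (3.03%). The sequences below run 5′ to 3′ on the gene's own strand from 60 bases before to 20 bases after the RefSeq start, and capitals mark the pyrimidine run.
Rps6 (chr4:86857348-86857427, minus strand): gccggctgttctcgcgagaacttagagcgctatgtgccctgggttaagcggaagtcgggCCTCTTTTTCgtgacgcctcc
Rpl19, second of its 2 starts (chr11:98026864-98026943, plus strand): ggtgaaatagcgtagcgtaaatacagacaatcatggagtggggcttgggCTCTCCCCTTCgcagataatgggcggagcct
Rps26 (chr10:128626487-128626566, minus strand): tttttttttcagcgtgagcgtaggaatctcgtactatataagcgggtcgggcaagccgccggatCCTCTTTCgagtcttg
Rps12 (chr10:23787190-23787269, minus strand): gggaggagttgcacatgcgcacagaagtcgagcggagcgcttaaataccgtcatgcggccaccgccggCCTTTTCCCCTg
Rplp2 (chr7:141447591-141447670, plus strand): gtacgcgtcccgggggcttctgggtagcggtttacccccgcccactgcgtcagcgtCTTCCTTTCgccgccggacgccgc
Rpl7l1 (chr17:46782637-46782716, minus strand): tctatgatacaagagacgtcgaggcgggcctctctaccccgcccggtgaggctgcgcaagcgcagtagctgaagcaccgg
In the first 5 of these genes the run overlapped the listed start or lay close to it. The first start of Rpl19, which is not printed, held no such run. Rpl10, also described below, held a run in the searched window but outside the stretch printed for the others. Rpl7l1, a paralog of Rpl7 linked to ribosome biogenesis, held no such run in the searched window.

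White adipose tissue of female mice was sequenced 2, 4, 6 and 8 weeks after injection of melanoma cells that cause cachexia, the loss of fat and muscle mass that accompanies some tumours (CAC), of melanoma cells that do not (NCAC), or after a mock injection (Con). The mice were 2 months old. The series record gives NCI Ath/nude mice, which lack a thymus and most T cells, and the strain tag of every sample gives C57BL6/J; neither the tumour cell lines nor the fat depot is named in the sources used here. There are 12 groups of 5 libraries, with 7 in CAC at 8 weeks. The read depth behind each value is unknown, because TPM keeps none. The adipocyte hormone gene Adipoq averaged 4108 TPM and was at least 1789 TPM in every library. The 37 mitochondrially encoded genes, whose symbols start with mt-, took 17.2% to 44.4% of a library's TPM, and a share that large lowers the TPM of every other gene. The uroplakin genes of the bladder lining (Upk1a, Upk1b, Upk2 and Upk3a) summed to 1.76 to 485 TPM, and were over 20 TPM in 31 libraries.

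All 80 members were above 0 in every library, and 60 were among the 500 rows with the highest mean. The member means spanned 55.2-fold, with a median of 377 TPM. Rplp1, a stalk protein that helps to recruit elongation factors, was highest at 1952 ± 867 TPM (SD, n = 62). Among the next highest were the 40S gene Rps15 (1143 ± 432 TPM), Rpl4 (1081 ± 432 TPM) and Rps3a1 (998 ± 584 TPM). The 10 highest genes made up 29.8% of the family's summed mean TPM. The differences between Rps15, Rpl4 and Rps3a1 did not exceed the spread over libraries.

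The lowest members were Rpl27 at 35.4 TPM (range 20.1 to 90.1), Rpl29 at 45.7 ± 19.7 TPM, Rpl7l1 at 55.9 ± 12.3 TPM, Rpl35a at 57.7 TPM (range 27.2 to 169) and Rps18 at 72.8 ± 33.4 TPM. Rpl27 and Rpl29 were the nearest members inside the limit of 5 TPM. The nearest rows outside it were Rpl3l, the muscle paralog of Rpl3, at 1.498 TPM, and Rpl39l, the testis-enriched paralog of Rpl39, at 0.225 TPM. Rpl6l averaged 0.0706 TPM, and Rps4l, Rps12l1, Rpl10l, Rps3a2 and Rps3a3 were listed at 0 in all libraries. Their widely expressed counterparts were Rpl3 at 287 ± 133 TPM, Rpl39 at 230 ± 97.2 TPM and Rps4x, the X-linked 40S gene, at 810 ± 358 TPM.

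Several members, low ones among them, have a pseudogene row that is higher than the gene's own row. The table has 270 rows named after a ribosomal protein gene with the suffix -ps, and 16 of them are above 0. Rpl27-ps3 averaged 701 TPM beside 35.4 TPM for Rpl27. Rpl10-ps3 averaged 1467 TPM beside 103 TPM for Rpl10. Rps12-ps3 averaged 1556 TPM beside 232 TPM for Rps12, and Rps18-ps3 averaged 154 TPM beside 72.8 TPM for Rps18. How reads shared by near-identical copies were assigned is not given in the sources used here, so the levels of these members are uncertain.

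The members varied together from library to library. Over the 62 libraries, the Pearson correlation of a member's log2(TPM + 1) with the mean of the other 79 members had a median of 0.98, was over 0.9 for 68 members and under 0.5 for 2. These points share a library, its composition and its scaling. The SD of a member's log2(TPM + 1) had a median of 0.52, and after subtraction of the library's mean over all members it had a median of 0.13. Rpl17, Rpl23, Rps9 and Rps23, from both subunits, were among those that followed the family most closely, with an SD of 0.07 to 0.08 after that subtraction. The summed TPM of the 40S members was 0.642 to 0.774 of the summed TPM of the 60S members in every library, while the family's sum itself spanned 5.74-fold.

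**Figure D1:**
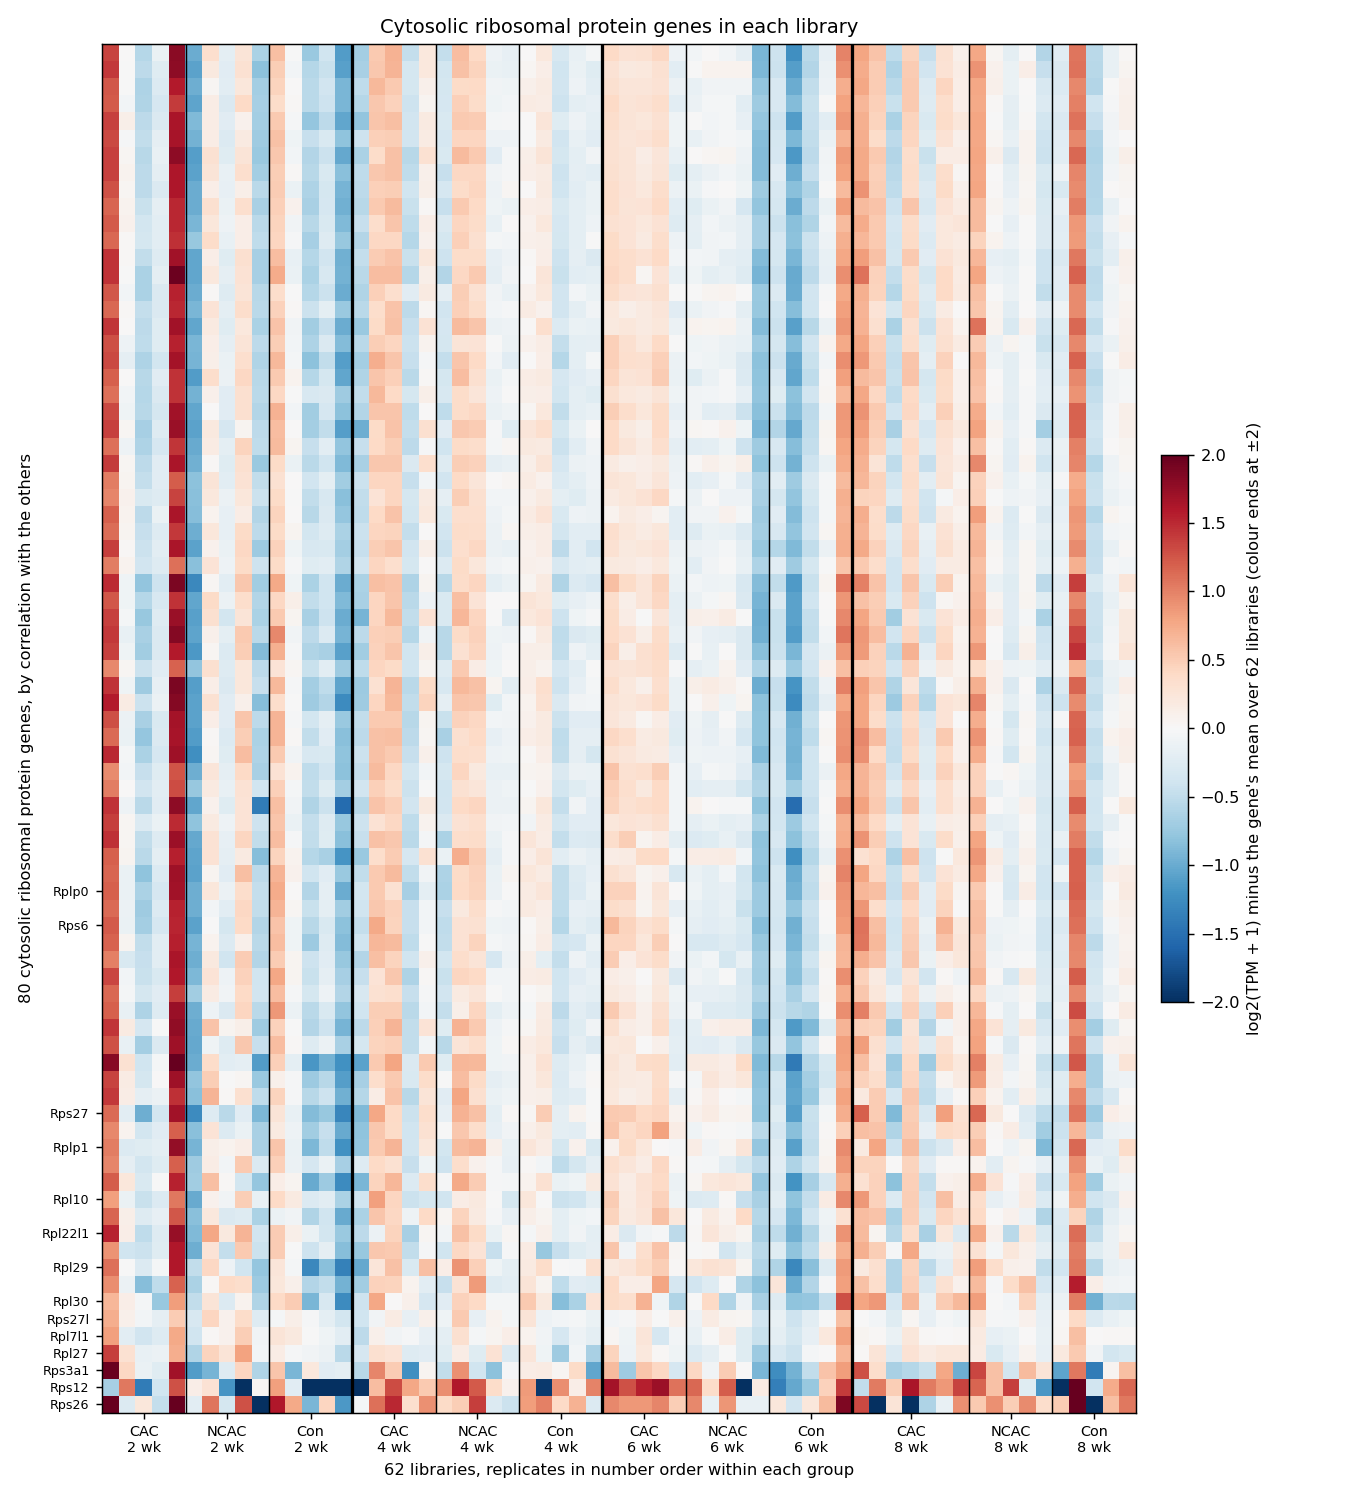
Each row is 1 of the 80 genes and each column 1 of the 62 libraries, and the colour is log2(TPM + 1) minus the gene's mean over all libraries, with the colour ends at -2 and 2. Genes are ordered from the highest correlation with the other members (0.99, top) to the lowest (0.28, bottom). Columns are nearly uniform from top to bottom except for Rps3a1, Rps12 and Rps26.

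Rps27l, a paralog of Rps27 known as a p53 target, and Rpl7l1 moved least. Rps27l ranged from 102 to 226 TPM over all libraries, a 2.21-fold span, and averaged 138 TPM. Rps27 ranged from 105 to 842 TPM, a 7.98-fold span, and averaged 289 ± 138 TPM. Rpl7l1 spanned 2.60-fold. The SD of log2(TPM + 1) was 0.24 for Rps27l and 0.28 for Rpl7l1, against 0.64 for Rps27. Rpl22l1, the paralog of Rpl22, averaged 130 ± 61.2 TPM and Rpl22 109 ± 43.3 TPM. Both ranged widely, Rpl22l1 from 61.8 to 404 TPM and Rpl22 from 56.1 to 320 TPM, and their correlations with the other members were 0.90 and 0.98. Rpl5 (262 ± 117 TPM) and Rpl11 (230 ± 68.8 TPM), the 60S proteins that bind Mdm2 when ribosome assembly fails, had correlations of 0.97 and 0.98.

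Rps26 and Rps12 were the least even members, and in both the sum with the pseudogene row followed the family. Rps26 is a 40S protein near the messenger RNA exit channel, and its row had an SD of 2.19 on the log2 scale relative to the other members. The Rps26 and Rps26-ps1 rows fell into 3 separate bands. In 44 libraries Rps26 took at least 98.9% of the sum of both rows, at 281 to 2464 TPM, while Rps26-ps1 was 0 to 7.88 TPM. In 14 libraries Rps26 took 41.5% to 44.7%. In 4 libraries it took 0.0255% to 0.0454%, at 0.250 to 0.407 TPM, while Rps26-ps1 was 590 to 1102 TPM. These 4 were CAC replicates 2 and 4 and Con replicate 3 at 8 weeks and NCAC replicate 5 at 2 weeks, so all arms were among them. No library lay between the bands. The sum of both rows had an SD of 0.20 relative to the members and a correlation of 0.95 with them, against 0.28 for Rps26 alone. Another gene, Sarnp, also differed between the bands. It was 15.5 to 23.8 TPM in the 4 libraries with Rps26 near 0. In the 14 libraries it was 31.4 to 55.6 TPM and in the 44 libraries 43.1 to 124 TPM. The reason was not tested.

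Rps12 is a 40S protein of the beak region, and its row ranged from 0.648 to 685 TPM. Rps12-ps3 ranged from 506 to 5448 TPM. The Rps12 row held 0.0573% to 32.6% of the sum of both rows, with no separate bands. The sum of both rows had a correlation of 0.98 with the other members, against 0.42 for Rps12 alone, and its SD relative to them was 0.13, against 1.61. Adding the pseudogene row also brought Rpl27 (correlation 0.97 for the sum, 0.73 for the row) and Rpl10 (0.96 for the sum, 0.90 for the row) closer to the family. For Rps2 it did the opposite, with 0.85 for the sum with Rps2-ps6 and 0.92 for the Rps2 row. Rps3a1 (SD 0.52) and Rpl30 (SD 0.34) were the next least even members, and neither had such a row at 5 TPM or more.

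**Figure D2:**
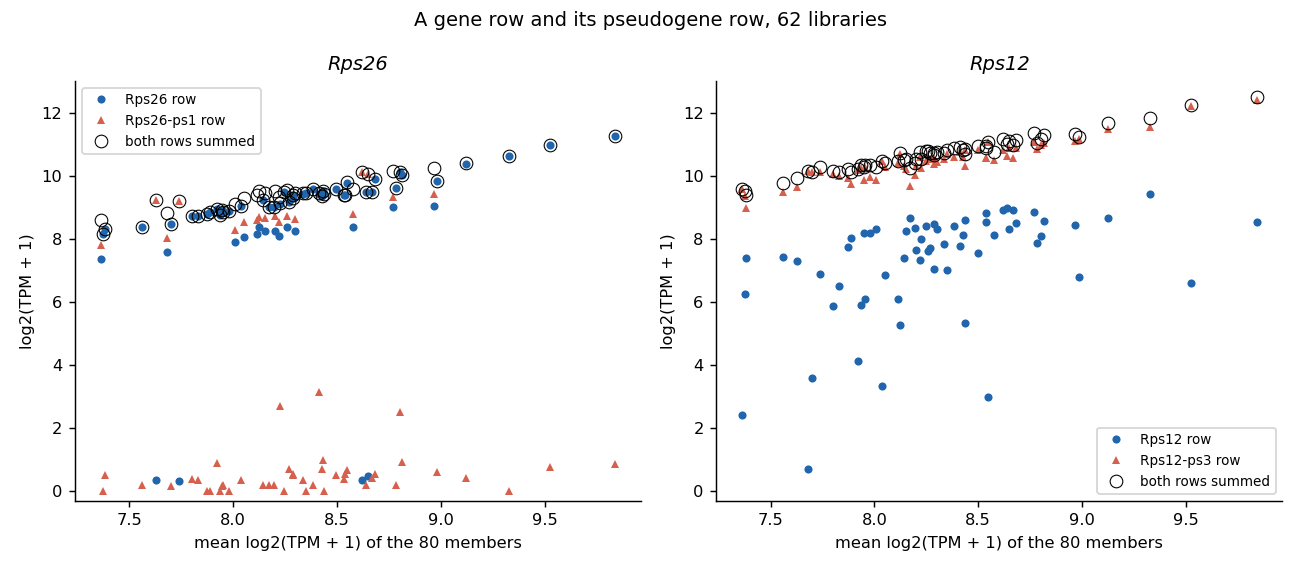
Each library is shown at the mean log2(TPM + 1) of the 80 members (horizontal axis), with log2(TPM + 1) of the gene row (blue circles), the pseudogene row (red triangles) and both summed (open circles) on the vertical axis. For Rps26 the gene row is near 0 in 4 libraries, where the pseudogene row is at 590 to 1102 TPM, and the sums lie along 1 band in both panels.

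The 80 members together took 1.799% to 10.3% of a library's TPM, with a median of 3.33%. With mt- genes left out of the total, the share was 3.14% to 12.8%, a 4.07-fold span. With all rows in the total, the share at 2 weeks was 8.25%, 3.42%, 2.49%, 2.93% and 10.3% in CAC tissue, 1.799%, 3.96%, 3.04%, 4.25% and 2.27% in NCAC tissue, and 4.94%, 3.37%, 2.38%, 2.75% and 1.89% in Con tissue. CAC replicates 1 and 5 stood above all other libraries of the series, and the other 3 CAC libraries lay within the range of Con. At 4 weeks the group means were 3.69 ± 1.25% in CAC, 3.69 ± 0.891% in NCAC and 3.28 ± 0.475% in Con tissue (SD, n = 5 each). At 6 weeks it was 4.45%, 4.10%, 4.04%, 4.37% and 3.21% in CAC tissue, 3.30%, 3.29%, 3.38%, 3.12% and 2.06% in NCAC tissue, and 2.69%, 1.82%, 2.48%, 3.41% and 6.02% in Con tissue. CAC and NCAC overlapped only through CAC replicate 5, and Con spanned both. At 8 weeks the means were 4.05 ± 1.09% in CAC (n = 7), 3.69 ± 1.04% in NCAC and 3.87 ± 1.804% in Con tissue (n = 5 each).

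Without mt- genes in the total, the means at 2 weeks were 7.51 ± 3.99% in CAC, 4.49 ± 1.22% in NCAC and 4.58 ± 1.46% in Con tissue (SD, n = 5 each). At 4 weeks they were 5.58 ± 1.60% in CAC, 5.21 ± 1.008% in NCAC and 4.86 ± 0.534% in Con tissue. At 6 weeks they were 5.65 ± 0.552% in CAC, 4.82 ± 0.864% in NCAC and 4.73 ± 1.53% in Con tissue. At 8 weeks they were 5.61 ± 1.19% in CAC (n = 7), 5.33 ± 1.24% in NCAC and 5.66 ± 1.89% in Con tissue. The differences between arms were smaller than the larger of the 2 group SDs at every week on both scales, except for CAC against NCAC at 6 weeks with all rows in the total, where the gap of 1.005 percentage points exceeded both SDs. These sums over the family are given as a description, with no test.

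**Figure D3:**
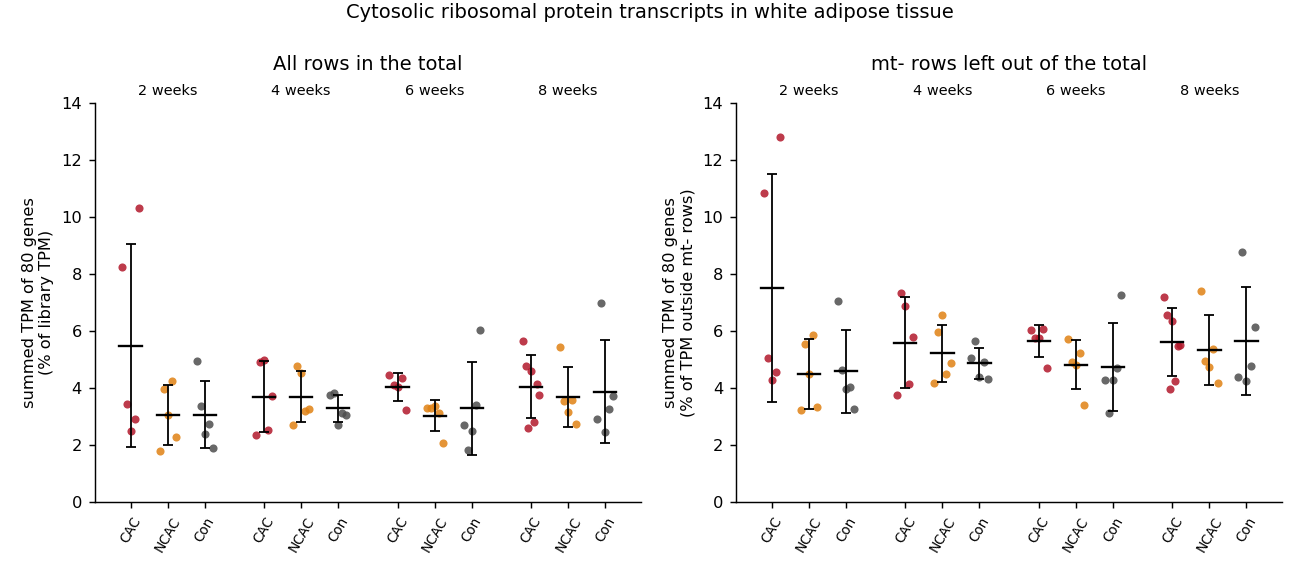
Points are libraries, horizontal bars group means and vertical bars 1 SD (n = 5, or 7 in CAC at 8 weeks); the vertical axis is the summed TPM of the 80 genes as a percent of the library's TPM, with all rows in the total (left) or without mt- rows (right). CAC replicates 1 and 5 at 2 weeks stand apart at 8.25% and 10.3%, or 10.8% and 12.8% without mt- rows.

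The 4 libraries with the highest shares differed from the rest in more than this family. They were CAC replicates 1 and 5 at 2 weeks and Con replicate 5 at 6 weeks (6.02%) and replicate 2 at 8 weeks (6.99%). Their 8 adipocyte markers summed to 31640 to 38896 TPM, against a median of 69533 TPM over all libraries. Their 4 proliferation markers (Mki67, Top2a, Ccnb1 and Cdk1) summed to 83.5 and 79.3 TPM in the CAC libraries and 18.5 and 48.2 TPM in the Con libraries, against a median of 4.29 TPM. The 6 fibroblast and progenitor markers summed to 3064 and 4130 TPM in the CAC libraries and to 6449 and 7209 TPM in the Con libraries, against a median of 1967 TPM. Of the 4 mammary epithelial markers, Csn3, Wap and Elf5 did not exceed 0.0176, 0.0605 and 0.404 TPM in any library. The fourth, the keratin Krt18, which other epithelia also express, reached 406 TPM. The share of mt- genes was 17.2% to 23.8% in these 4 libraries. The next highest share was 5.66%, in CAC replicate 1 at 8 weeks. There the adipocyte markers summed to 54426 TPM, the proliferation markers to 2.54 TPM and the fibroblast and progenitor markers to 1991 TPM. Adipocyte sums were below the median at the lowest shares too. They were 58481 TPM in NCAC replicate 1 at 2 weeks, 65020 TPM in Con replicate 2 at 6 weeks and 54099 TPM in Con replicate 5 at 2 weeks. In bulk tissue, fewer cells of a type and less RNA per cell cannot be told apart. The part of tissue composition in the ribosomal protein values was not tested. CAC replicate 5 at 2 weeks was the highest library for 73 of the 80 members, and NCAC replicate 1 at 2 weeks was the lowest for 43.

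At 2 weeks no member was called in any comparison of arms (limma with Benjamini-Hochberg adjustment over all 14572 to 14574 tested genes, adjusted p under 0.05). The background share called higher was 0.00686% for CAC against Con, 0% for CAC against NCAC and 0% for NCAC against Con. Counts of members are not independent results, because the members vary together across libraries. All 80 members had a positive log2 change in CAC against Con, with a median of 0.67 (0.08 for all tested genes), and 5 had an unadjusted p under 0.05. Over all 14572 tested genes 64.2% had a positive change and 503 an unadjusted p under 0.05. The largest of those 5 were Rps28 at 1.35 (SE 0.52), Rpl29 at 1.13 (SE 0.43) and Rps29 at 1.10 (SE 0.41), all with an adjusted p of 0.999 by limma, and the other 2 were Rplp2 and Rpl38. The stalk gene Rplp0 was 1860, 738, 524, 640 and 2599 TPM in CAC tissue and 1359, 818, 540, 713 and 408 TPM in Con tissue. Only CAC replicates 1 and 5 were above the highest Con library. Without those 2 libraries, the median log2 change over members was -0.0037 against Con and -0.013 against NCAC, and no member was called. Against NCAC the median with all libraries was 0.67, and NCAC against Con had a median of 0.0018.

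At 4 weeks no member was called either, with a background of 0.00686% higher for CAC against Con, 0% for CAC against NCAC and 0% for NCAC against Con. The median log2 changes were 0.12 for CAC against Con, -0.04 for CAC against NCAC and 0.15 for NCAC against Con. The CAC against NCAC median was 0.06 without mt- genes in the total and 0.04 with median-ratio rescaling, so its sign depends on the scaling, and none of the 80 members had an unadjusted p under 0.05 in these 3 comparisons. Of 14576 tested genes, 405 did in CAC against Con, 648 in CAC against NCAC and 115 in NCAC against Con. At 8 weeks 158 genes were called higher in CAC than in Con (1.08% of those tested) and 290 lower (1.99%), and no member was among them. The median member change was 0.12, 0.01 after removal of mt- genes from the total and 0.22 with median-ratio rescaling. The medians of all tested genes were -0.08, -0.18 and 0.0026 in the same order. The members' median minus that of all genes was 0.20, 0.19 and 0.22. The member nearest the threshold was Rpl30, at 149 ± 43.0 TPM in CAC tissue (n = 7) and 102 ± 65.0 TPM in Con tissue (n = 5), a log2 change of 0.66 (SE 0.32, adjusted p 0.265 by limma). CAC against NCAC at 8 weeks had a median of 0.15 with no member called, where the background was 0.343% higher and 0.185% lower. NCAC against Con had a median of -0.02, or 0.04 with median-ratio rescaling, with no member called and a background of 0% in either direction. At unadjusted p under 0.05 the count was also 0 of 80 in each of these 3 comparisons at 8 weeks. Over all tested genes it was 2999 of 14577 in CAC against Con, 2342 of 14577 in CAC against NCAC and 181 of 14576 in NCAC against Con.

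At 6 weeks 5 of the 80 members (6.25%) were called higher in CAC than in NCAC and none lower. The background was 4.94% of tested genes called higher and 0.844% lower, so the members' share was near that of all genes. The 4 described here are Rpl19, Rpl10 and Rpl36, which encode 60S proteins, and Rps6, which encodes the 40S protein phosphorylated by S6 kinases. Rps6 was 866, 753, 671, 711 and 538 TPM in CAC tissue and 486, 470, 484, 449 and 306 TPM in NCAC tissue, a log2 change of 0.69 (SE 0.17, adjusted p 0.0366 by limma). Rpl19 was 1073, 976, 883, 1016 and 743 TPM in CAC tissue and 664, 677, 678, 596 and 508 TPM in NCAC tissue, a log2 change of 0.58 (SE 0.14, adjusted p 0.0342 by limma). In these 2 genes every CAC library lay above every NCAC library. Rpl36 was 1024, 891, 944, 1224 and 772 TPM in CAC tissue and 656, 709, 691, 681 and 482 TPM in NCAC tissue, a log2 change of 0.59 (SE 0.15, adjusted p 0.0479 by limma). Its groups did not overlap either. Rpl10, a 60S protein near the peptidyl transferase centre that joins late in assembly, was 140, 110, 119, 136 and 92.2 TPM in CAC tissue and 81.6, 82.4, 99.9, 70.9 and 62.2 TPM in NCAC tissue, so that 1 CAC library lay within the NCAC range. Its log2 change was 0.58 (SE 0.15, adjusted p 0.0465 by limma), and with Rpl10-ps3 added it was 0.52 (adjusted p 0.0760 by limma).

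**Figure D4:**
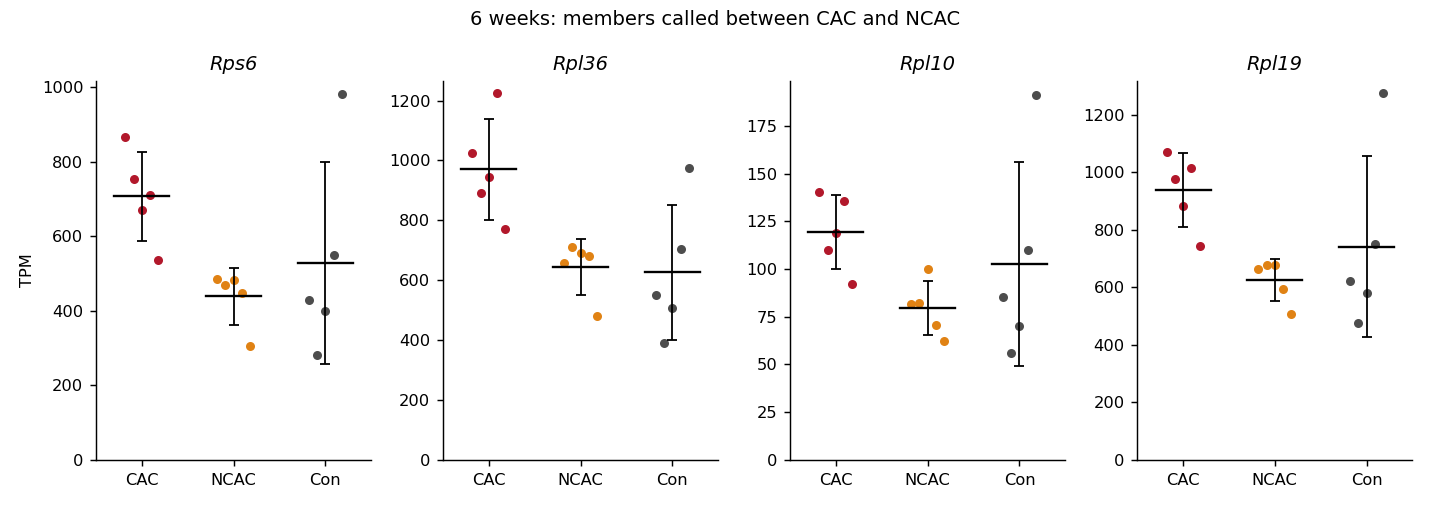
TPM of 4 of the 5 called members in each library at 6 weeks, with group means (horizontal bars) and 1 SD (vertical bars), n = 5 each. CAC points lie above NCAC points without overlap except in Rpl10, and 1 Con library (replicate 5) reaches or exceeds most CAC values.

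Most members had log2 changes in the same direction at 6 weeks. Because the members vary together across libraries, the counts below are not counts of independent results. Of 80 members, 79 had a positive log2 change in CAC against NCAC, 54 had an unadjusted p under 0.05, and the median was 0.42 (0.13 for all tested genes). Over all 14576 tested genes 67.2% had a positive change and 3825 an unadjusted p under 0.05. The medians were 0.42 for the 40S members and 0.42 for the 60S members. In 10 of the 80 members the groups did not overlap (background 6.88% of tested genes higher and 1.14% lower), among them Rplp0, Rps2, Rpl18, Rpl7a, Rpl8 and Rpl13a beside 4 called genes. Rplp0 averaged 975 ± 140 TPM in CAC and 664 ± 109 TPM in NCAC tissue, a log2 change of 0.56 (SE 0.15, adjusted p 0.0568 by limma). Rpsa, the laminin-receptor protein of the 40S subunit, had a log2 change of 0.51 (SE 0.17), Rpl3 0.54 (SE 0.15), Rpl5 0.47 (SE 0.17) and Rpl11 0.45 (SE 0.14), with adjusted p by limma of 0.0926, 0.0603, 0.114 and 0.0735. The paralogs Rps27l (0.07, SE 0.12), Rpl7l1 (0.10, SE 0.14) and Rpl22l1 (-0.11, SE 0.18) had log2 changes within 1 SE of 0. Rplp1 and Rplp2 had log2 changes of 0.22 (SE 0.19) and 0.32 (SE 0.17).

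The count of 5 depended on the scaling and on single libraries. The mt- share was 28.7 ± 2.11% in CAC and 37.0 ± 5.50% in NCAC tissue at 6 weeks. With mt- genes removed from the total the members' median was 0.24 and the median of all tested genes -0.02, a shift of all genes from 0.13, and 1 member was called. The members' median minus that of all genes was 0.30 as deposited, 0.27 without mt- genes and 0.27 with median-ratio rescaling. Leaving out 1 library at a time gave 1 to 13 called members. The count was 1 without CAC replicate 1, 2 or 4 or without NCAC replicate 1, 2 or 4. It was 2 without CAC replicate 3, 3 without NCAC replicate 5, 11 without CAC replicate 5 and 13 without NCAC replicate 3. In these 10 fits Rpl19 was called in 4, Rps6 in 3, Rpl10 in 2 and Rpl36 in 2.

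Markers of other tissues also differed between these arms. The 4 urothelial genes summed to 485, 341, 29.2, 4.93 and 145 TPM in CAC tissue and to 6.63, 12.2, 35.8, 15.8 and 7.98 TPM in NCAC tissue, and Upk1a and Upk3a were called higher. Upk2 was listed at 0 in all 5 NCAC libraries. The 5 skeletal muscle genes summed to 31.0 to 713 TPM in CAC and 6.43 to 108 TPM in NCAC tissue, and Myh4 was called higher. The 8 adipocyte genes averaged 77839 ± 10486 TPM in CAC and 68795 ± 12214 TPM in NCAC tissue (SD, n = 5 each), with overlap. The macrophage, melanocyte and mammary epithelial lists also had higher sums on average in CAC tissue. The fibroblast and progenitor, B cell, T and NK cell, proliferation, mesothelial and erythroid lists had lower sums on average, with no gene called. The 4 proliferation genes summed to 0.988 to 2.45 TPM in CAC and 2.48 to 13.6 TPM in NCAC tissue, without overlap. The 4 mesothelial genes averaged 53.2 ± 30.5 TPM in CAC and 121 ± 69.3 TPM in NCAC tissue, and the 3 erythroid genes 1788 ± 1206 TPM in CAC and 4906 ± 3084 TPM in NCAC tissue (SD, n = 5 each), both with overlap. Within the CAC group, replicate 1 had the highest urothelial sum (485 TPM) and the highest summed ribosomal protein share, at 4.45%. CAC replicate 4 had the lowest urothelial sum (4.93 TPM) and the second-highest share, at 4.37%. Without the libraries over 20 TPM of urothelial genes, 1 CAC library and 4 NCAC libraries remained, the log2 change of Rps6 was 0.76 (SE 0.32, adjusted p 0.336 by limma) and no member was called. That fit assumes that the lone CAC library varies like the NCAC libraries. The part of these other transcripts in the ribosomal protein values was not tested further.

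Against Con at 6 weeks no member was called in CAC (background 0.309% higher, 0.048% lower) or in NCAC (background 0%). The median member change was 0.41 in CAC and -0.06 in NCAC, the second of which was 0.01 without mt- genes in the total and 0.12 with median-ratio rescaling. The members nearest the threshold in CAC against Con were Rps12 (1.71, SE 0.46, adjusted p 0.199 by limma), Rplp2 at 446 ± 55.2 TPM in CAC and 301 ± 91.4 TPM in Con tissue (log2 change 0.61, SE 0.21, adjusted p 0.355 by limma), and Rpl36 at 971 ± 168 TPM in CAC and 626 ± 225 TPM in Con tissue (0.69, SE 0.24, adjusted p 0.364 by limma). Without Con replicate 5, in which the family took 6.02% of the TPM, 3 members were called.

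**Figure D5:**
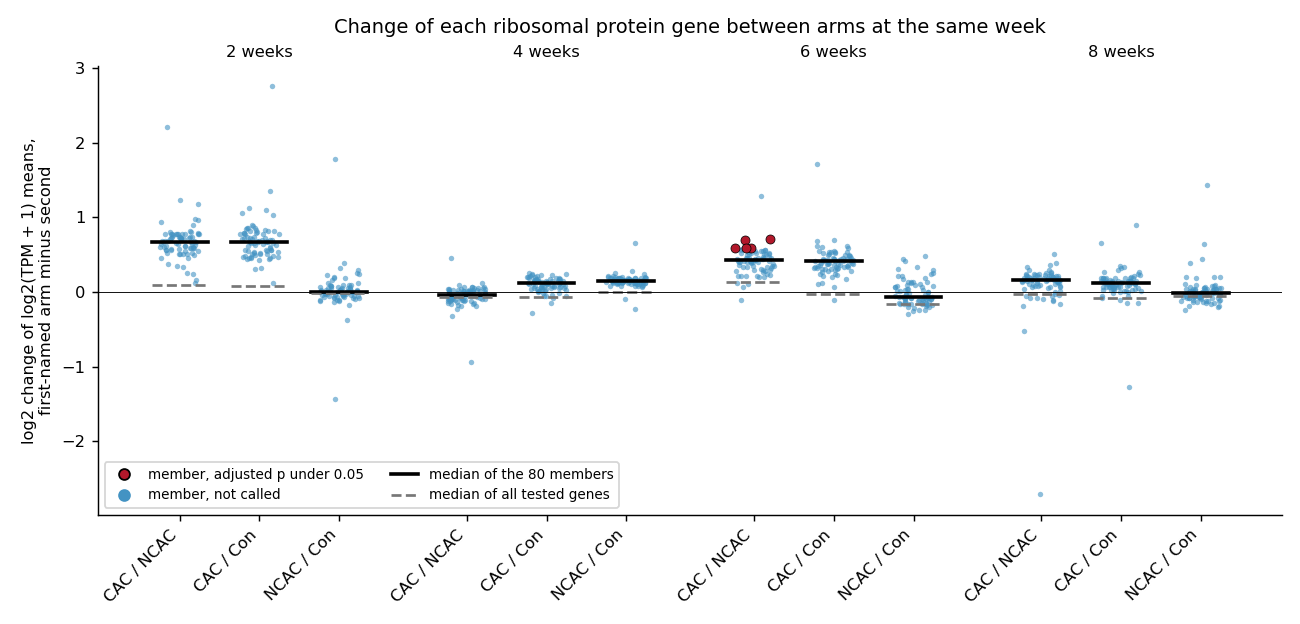
Each point is 1 member's log2 change between arms at the same week on the log2(TPM + 1) scale, first-named arm minus second; red points are called, black bars are the medians of the 80 members and dashed bars the medians of all tested genes. The members' medians were 0.67 in both comparisons of CAC at 2 weeks and 0.42 and 0.41 at 6 weeks; the 5 called members are all in CAC against NCAC at 6 weeks. The points farthest from the others are Rps12 and Rps26.

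To ask which members depart from the family, each library's mean log2(TPM + 1) over the members was subtracted from every gene before the test. That mean includes the Rps26 and Rps12 rows, which lower it in the libraries where they are near 0. At 2, 4 and 8 weeks no member was called in CAC against Con (background 0%, 0.00686% and 1.21% higher, and 0%, 0% and 8.16% lower), and 1, 0 and 1 members had an unadjusted p under 0.05, against 4267, 810 and 3192 of all 14577 genes. At 6 weeks 1 was called higher and 1 lower, where the background was 0.83% higher and 33.6% lower. The subtraction sets the members' mean change to 0 by construction. The counts over all genes therefore do not measure how even the members are. Rps12 was 487, 370, 451, 501 and 324 TPM in CAC tissue and 58.5, 74.4, 89.8, 210 and 406 TPM in Con tissue, a relative log2 change of 1.31 (SE 0.29, adjusted p 0.0101 by limma). With Rps12-ps3 added to the Rps12 row the relative change was -0.023 (adjusted p 0.938 by limma). Rpl7l1 was 56.4, 51.8, 65.2, 43.0 and 52.5 TPM in CAC tissue and 48.0, 42.8, 49.0, 63.6 and 97.8 TPM in Con tissue. The groups overlapped, at 53.8 ± 8.02 TPM in CAC and 60.2 ± 22.4 TPM in Con tissue, and Rpl7l1 was not called without the subtraction. Relative to the family its level fell by 0.52 log2 units (SE 0.18, adjusted p 0.0424 by limma). The members' median log2 change was 0.41, and the subtraction lowers every gene that did not rise with them. When 1 library at a time was left out, Rps12 was called in 10 of 10 fits and Rpl7l1 in 3 of 10. Without Con replicate 5 the count was 5, and it was 1 without CAC replicate 1, 2 or 4 or without Con replicate 1, 2, 3 or 4.

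The difference of the CAC effect between weeks was tested directly. The CAC minus Con difference at 8 weeks minus that at 2 weeks had a median of -0.53 over the members (-0.18 for all tested genes). No member was called (background 0.0343% higher, 0.0206% lower), with 2 members and 1362 of all 14577 genes at an unadjusted p under 0.05. The members' median for CAC against Con was 0.67 at 2 weeks and 0.12 at 8 weeks. As given above, the 2-week median was no longer positive without the 2 CAC libraries with the highest ribosomal protein shares. The value of -0.53 includes that 2-week difference and was not refitted without these libraries. It therefore does not show a CAC effect that declined across the group. Con tissue at 8 weeks against 2 weeks had a median of 0.31 (0.16 for all tested genes) with no member called and none at an unadjusted p under 0.05 (background 0%), where 564 of all 14576 genes were. The CAC minus NCAC difference at 6 weeks minus that at 8 weeks, a test added after the calls at 6 weeks were seen, had a median of 0.29, no member called (background 0%) and 1, Rpl21, at an unadjusted p under 0.05, against 482 of all 14577 genes. The calls at 6 weeks and their absence at 8 weeks were therefore not shown to differ.

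Some other genes of translation were called in CAC against NCAC at 6 weeks. Unlike the calls of members, the calls in this and the next lists were not recounted under other scalings or with libraries left out. In CAC against NCAC at 6 weeks 4 of 23 translation factors and other TOP transcripts were called higher and none lower, with a median of 0.33. The background for this and the next lists was 4.94% higher, with a median of 0.13. Fau encodes a ribosomal protein fused to a ubiquitin-like protein. Fau was 218 ± 27.8 TPM in CAC and 152 ± 19.6 TPM in NCAC tissue (0.52, SE 0.13, adjusted p 0.0403 by limma). The elongation factor gene Eef2 was 1449 ± 252 TPM in CAC and 914 ± 109 TPM in NCAC tissue (0.65, SE 0.15, adjusted p 0.0313 by limma), and the initiation factor subunit gene Eif3l had a log2 change of 0.47 (SE 0.11, adjusted p 0.0301 by limma). Eef1a1 (0.38, SE 0.14), Tpt1 (0.42, SE 0.16), Npm1 (0.33, SE 0.16), Pabpc1 (0.14, SE 0.17) and Gnb2l1, the table's symbol for the 40S scaffold Rack1 (0.60, SE 0.17), were not called.

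Of 30 ribosome biogenesis genes 2 were called higher, Nolc1 (log2 change 0.63, SE 0.13, adjusted p 0.0196 by limma) and the RNA polymerase I factor Rrn3 (0.52, SE 0.14, adjusted p 0.0498 by limma), with a list median of 0.28. That share was near the background of 4.94%. Of 21 genes of mTORC1, Myc and initiation factor control 3 were called higher, with a median of 0.28. They encode the translation repressor Eif4ebp2 (0.62, SE 0.11, adjusted p 0.0110 by limma), the S6 kinase Rps6kb1 (0.53, SE 0.12, adjusted p 0.0289 by limma) and the mTORC1 inhibitor Ddit4 (1.67, SE 0.41, adjusted p 0.0414 by limma). Mtor (0.63, SE 0.20), Larp1 (0.45, SE 0.13), Myc (0.91, SE 0.30) and Eif4ebp1 (0.21, SE 0.17) were not called. The 77 mitochondrial ribosomal protein genes, which build the separate ribosome of mitochondria, had a median of 0.08 with none called. In CAC against Con none of these 4 lists had a called gene at any of the 4 weeks, and their medians at 6 weeks were 0.20, 0.09, 0.12 and 0.08.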

How the data were processed

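RNA of white adipose tissue was extracted with Trizol and sequenced from stranded TruSeq mRNA libraries on an Illumina NovaSeq, per the labels. The authors deposited 1 table of TPM with 47643 gene symbols. The genome build was mm10, as the submitters' processing notes record, and which aligner and counter made the TPM is not given in the sources used here. Arm, week and replicate come from each library's description; the treatment tag names cachectic cells for all 62. The labels call the replicates biological. No 2 libraries held identical values.

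Values were tested as log2(TPM + 1) by limma (version 3.58.1, R 4.3.3). Each fit took only the groups being compared, and the 14577 genes averaging 0.5 TPM or more (a gene without variation in a comparison drops out). The fit used empirical Bayes with a trend and a robust prior, two-sided p, and Benjamini-Hochberg adjustment over all tested genes; called means an adjusted p under 0.05. Folds on this scale understate changes of low genes. The fits were tested on simulated data with independent noise for each gene, so that test does not cover counts among members that vary together. Gene positions were looked up in GENCODE M21, which held all 80 members.

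The members, lists and rules were chosen with earlier results of these data known. Named members are up to 5 called in each direction per comparison, the 5 highest, lowest, most even and least even, those next to the 5 TPM limit, and a fixed set of paralogs, stalk and Mdm2-binding proteins. Rps28, Rps29, Rpl38, Rpl21, Rpl30, Sarnp, the -ps rows, and the non-called genes given as nearest a threshold or without overlap were chosen after their values were seen. So were Eif3l, Nolc1, Rrn3, Eif4ebp2, Rps6kb1 and Ddit4, which were called. For the members, no alternative was left out except where too few libraries remained. Some genes that the naming rule selects are not reported here.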

Additional observations from a re-analysis of the deposited data

Results flagged for a closer look

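A sample far from the others was sought with Dixon's criterion in 72 sets, made of 12 groups and 6 measures. It marked 10, where chance marks about 1 in 20; the measures share libraries and move together. The same libraries recur. The summed share of Con replicate 2 at 8 weeks was 6.99% (next highest 3.71%), and in that library Rpl19 was 1440 TPM, Rps6 1185 TPM and Rpl36 1112 TPM. NCAC replicate 5 at 6 weeks was low, with a summed share of 2.06% (next lowest 3.12%), with Rps6 at 306 TPM and Rpl36 at 482 TPM. CAC replicate 5 at 6 weeks was low without mt- genes in the total, at 4.70% (next lowest 5.74%). NCAC replicate 1 at 8 weeks was high in Rpl19 at 1066 TPM and Rps6 at 843 TPM. CAC replicates 1 and 5 at 2 weeks were not marked, because 2 high libraries in a group of 5 hide each other from this criterion.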

How the results depend on the processing

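Of 144 recounts of called members under alternatives other than leaving out a library, 133 stayed within 1.5 times the count reported. A count of 0 that stayed at 0 was taken as unchanged. Only CAC against NCAC and the relative level of CAC against Con, both at 6 weeks, had a reported count above 0. CAC against NCAC at 6 weeks changed from 5 to 1 without mt- genes in the total, 3 with median-ratio rescaling, 2 with no filter on low values, 0 with all 62 libraries in 1 fit, 0 without the libraries over 20 TPM of urothelial genes and 26 with the replicate number as a block; leaving out a library gave 1 to 13. The block changed this comparison most, but the numbers do not pair the samples: correlations of same-numbered libraries ran from -0.65 to 0.57, and in 0 of 13 comparisons was every pair over 0.1. CAC against Con at 6 weeks changed from 0 to 1 with median-ratio rescaling, and to 0 to 3 when a library was left out. For levels relative to the family, 2 weeks changed from 0 to 8 with all 62 libraries in 1 fit. At 6 weeks 2 became 1 in that fit, 0 with the replicate block, 1 with pseudogene rows added and 1 to 5 when a library was left out; Rps12 then reversed to -0.023 with its pseudogene row added. The block changed no other count. Summed shares stayed within 1 SD in 48 of 50 alternatives; without urothelial libraries the 6-week difference was 2.54 percentage points for CAC against Con, from 0.749, and 1.12 for NCAC against Con, from -0.255, with 1 library left in each of CAC and Con. When a library was left out the share differences ran from 1.21 to 3.16 (CAC against Con) and 1.21 to 3.17 (CAC against NCAC) at 2 weeks, 0.0926 to 0.744 and -0.313 to 0.339 at 4 weeks, 0.384 to 1.43 and 0.763 to 1.21 at 6 weeks, and -0.172 to 0.960 and 0.0950 to 0.802 at 8 weeks. The causes were not tested. Urothelial libraries could not be left out where no residual degree of freedom remained. The pseudogene sums and the fits without CAC replicates 1 and 5 at 2 weeks were chosen after seeing the data. Median-ratio rescaling moved the median of all genes by over 0.1 (log2) at 6 weeks in CAC against NCAC (-0.01, from 0.13) and NCAC against Con (0.0021, from -0.16), in Con at 8 against 2 weeks (0.0037, from 0.16) and in the CAC effect at 8 against 2 weeks (-0.0067, from -0.18). Depth is unknown, so no detection limit is given.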
